A study of Acipenser ruthenus with 15 samples.

Results

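Sections B and D are the inner slices on either side of the middle of the sterlet egg, B next to the animal pole section and D next to the vegetal pole section. The comparison takes the 6 libraries of these 2 sections out of 15, 3 of section B and 3 of section D, chosen by their labels. Each library comes from an egg of Acipenser ruthenus, which the labels give as an oocyte at stage 1, and the eggs numbered 10, 18 and 20 each gave 1 library of section B and 1 of section D. No treatment, strain or genotype is given, and the females that laid the eggs are not named in the sources used here. The tests therefore describe differences in these 3 eggs. Their spread was pooled over all 15 libraries, those of the pole sections included, so it is not the spread of B and D alone. The question is how much of the animal-vegetal difference exists when both pole sections are set aside.

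In the eggs of fishes and amphibians the animal side carries the nucleus and the vegetal side most of the yolk. Maternal RNAs that are moved to and held at one side during oogenesis place germ cell and germ layer determinants before the embryo starts its own transcription. In the frog Xenopus such vegetal RNAs are held in a cortical layer around the vegetal pole, while other maternal RNAs are spread through the cytoplasm. Sturgeon eggs cleave completely, as frog eggs do.

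Levels are CPM, counts scaled to a common library size with TMM, which rests on the premise that most transcripts do not differ. A level states a transcript's part of its library, so less of one RNA and more of the others in a section cannot be told apart. Totals ran from 6617562 to 14500611 counts in the 6 libraries, and 29102 transcripts were tested. The transcripts carry assembly IDs that none of the tables used here pairs with gene names, so few IDs are named: those with the largest differences, at most 2 per direction of a comparison, the 2 most abundant, 2 with opposite directions inside and at the poles, and 1 Trinity pair. Their roles and sequences, and egg and follicle cell markers, were not analysed here. A difference was called at a Benjamini-Hochberg adjusted p under 0.05 in edgeR's quasi-likelihood test, with the egg as a block.

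Section D held transcripts that were almost missing from section B. trinitytrinLocGG_62355c0g1t1 had 0 counts in each B library. In section D it stood at 13.3 CPM in egg 10, 3.47 in egg 18 and 14.6 in egg 20, so the sections did not overlap. Against a floor of 3 counts per library it was at least 32.9-fold higher in D (adjusted p = 7.29e-05 in edgeR). In section C, between them, it was seen in egg 10 alone, at 2.94 CPM.

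trinitytrinLocDN53737c0g1t2 stood at 0.284, 0.248 and 0 CPM in section B of eggs 10, 18 and 20. In section D of the same eggs it stood at 11.7, 29.0 and 41.0 CPM. Every D library was far above every B library, and the mean was 154-fold higher in D, with 6 counts in all in section B and a 95% counting interval of 63.2 to 378-fold. The log2 difference was 6.91 ± 0.35 (SE, adjusted p = 1.26e-09 in edgeR). This SE is derived from the test's F value. It is narrower than the counting interval and understates the uncertainty at so few counts in B. Leaving out egg 10 gave 7.65, leaving out its section B alone 7.64, and leaving out egg 20 gave 6.20.

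The transcripts named by the same rule on the side of section B differed less. trinitytrinLocDN53171c2g1t1 stood at 41.4, 48.2 and 49.1 CPM in section B of eggs 10, 18 and 20 and at 3.36, 1.66 and 2.14 CPM in section D. It was 19.4-fold higher in B, with a log2 difference of -4.38 ± 0.37 (SE, adjusted p = 1.27e-07 in edgeR). The sections did not overlap, and in CPM section C was nearer to D, at 4.87, 3.13 and 10.9. On the log2 scale C was not called apart from the mean of B and D (-0.78 ± 0.36, SE, adjusted p = 0.674 in edgeR). trinitytrinLocGG_38035c0g1t1 stood at 16.4, 17.3 and 28.2 CPM in section B against 1.48, 0.679 and 1.89 CPM in section D. It was 15.3-fold higher in B, with a log2 difference of -4.01 ± 0.22 (SE, adjusted p = 5.41e-10 in edgeR). Its values in C, from 2.53 to 3.77 CPM, lay between those of B and D in each egg.

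**Figure D1:**
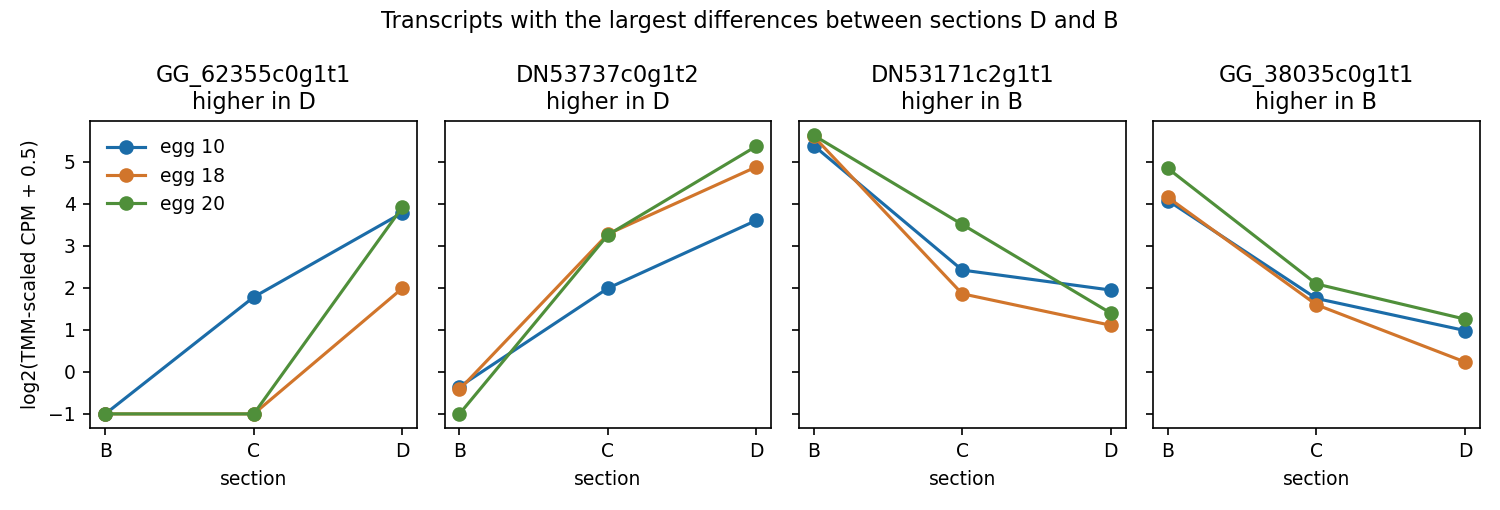
Level of 4 transcripts in sections B, C and D of each egg, as log2 of TMM-scaled CPM plus 0.5, so that 0 counts plot at -1; the points are single libraries and the lines join the sections of one egg. Both transcripts named for D rise from B to D in each egg, and both named for B drop.

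In all, 6391 of the 29102 transcripts (22%) differed between sections D and B, 3592 of them higher in D (12.3%) and 2799 higher in B (9.62%). With TMM the 2 directions were uneven among the large differences. At least 2-fold differences were called for 1690 transcripts higher in D and 714 higher in B, which are 5.81% and 2.45% of those tested. This balance was 1464 against 1130 with library totals, and it turned to 1010 against 5219 with the deposited factor and to 760 against 12869 with the spike-in. At 4-fold the numbers with TMM were 763 and 125, and at 16-fold 112 and 23. In 6321 of the 6391 each of the 3 eggs had the direction of the call. The calls were made from these same eggs, so this agreement is largely built in and is no replication. The B and D libraries did not overlap for 4936 of the 6391, 77.2%, against 25.8% of all transcripts tested, where 22% were called.

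These numbers rest on the pairing of the sections within eggs and on the number of eggs. Without the egg as a block, 2777 transcripts were called, 1924 higher in D and 853 higher in B. Without egg 18 the number was 3915 and without egg 20 it was 3456. The 6 libraries of B and D on their own gave 6594 calls among 26389 transcripts tested, and 5883 of these were calls of the fit over all libraries with the same direction.

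The eggs were alike in the differences. Over the 17187 transcripts with a mean of at least 5 CPM in B and D, the log2 difference of D to B in one egg correlated with that in another at r = 0.83 for eggs 10 and 18, 0.79 for eggs 10 and 20 and 0.85 for eggs 18 and 20. The Spearman values were 0.66, 0.64 and 0.71. These are correlations across transcripts, which are not independent, and the eggs share the scaling. At these levels 1072 transcripts were at least 2-fold higher in D in egg 10, 964 in egg 18 and 1032 in egg 20. At least 2-fold higher in B were 308, 417 and 678, so egg 20 had the most and egg 10 the fewest on that side. The median SD of the log2 difference over the eggs was 0.20.

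The balance of directions depended on how libraries were scaled. With TMM 56.2% of the calls were higher in D, against 54.3% with DESeq2 size factors, 35% with library totals, 8.1% with the factor behind the deposited normalized values and 4.59% with the spike-in. The median log2 difference over all transcripts was 0 with TMM, -0.15 with library totals, -0.61 with the deposited factor and -0.97 with the spike-in. The number called was 17940 with the deposited factor and 21318 with the spike-in. Like TMM, each moves every transcript of a library by one amount that the test takes as known. Of the TMM calls, 307 and 649 were called in the opposite direction under these scalings. The 4 transcripts named above kept direction and call under each scaling. Values below are given with TMM, and relative to all transcripts where the scaling matters.

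**Figure D2:**
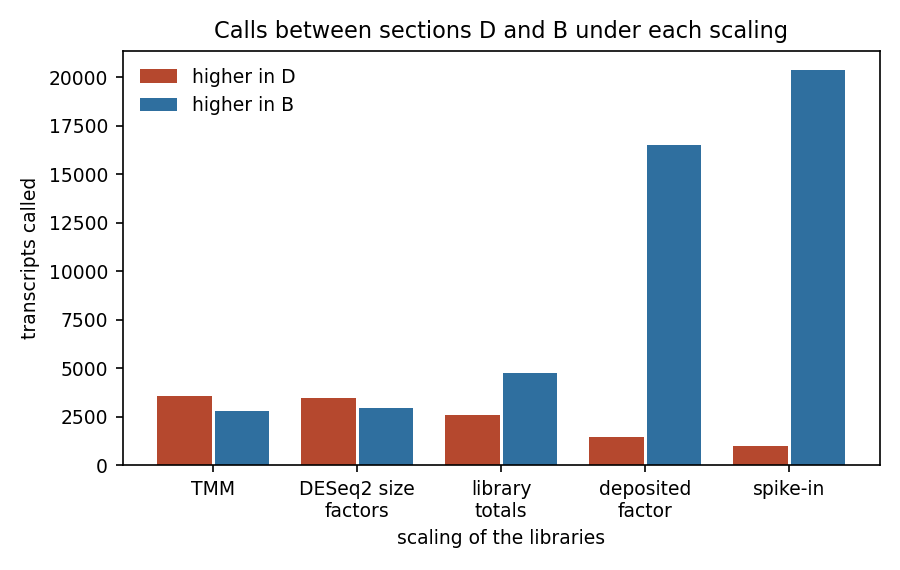
Number of transcripts called higher in D or higher in B (adjusted p under 0.05) when libraries are scaled in 5 ways. The bars for D exceed those for B with TMM and with DESeq2 size factors, 3592 against 2799 and 3476 against 2930, and fall below them with library totals, the deposited factor and the spike-in.

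The share called was higher at higher levels. Among transcripts with a mean under 1 CPM in B and D, 7.51% were called, and the share rose to 11.4% at 1 to 5 CPM, 23.1% at 5 to 20 CPM, 32.9% at 20 to 100 CPM and 42.7% over 100 CPM. At least 2-fold calls made up 6.71 to 9.45% in these classes. With TMM the excess toward D was present in each of them, from 65.3% of the at least 2-fold calls at 1 to 5 CPM to 77.8% over 100 CPM. By kind of ID, 22.8% of the 18986 DN transcripts and 20.5% of the 10116 GG transcripts were called, while at least 2-fold calls made up 7.14% and 10.4%.

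Absence from one section was rare among the transcripts tested. The filter had removed transcripts with few counts in most libraries, so these numbers do not cover low transcripts that may be missing from a section. Of the 29102 transcripts tested, 31 had 0 counts in section B and 23 had 0 counts in section D. Of the transcripts called higher in D, 17 had 0 counts in the 3 B libraries, and 76 had at most 3. Of those called higher in B, 9 had 0 counts in the 3 D libraries, with a mean in B of at most 2.14 CPM, and 26 had at most 3. A count of 0 allows a level of up to 0.318 CPM in section B and 0.336 CPM in section D, at 3 counts per library. These floors cover counting error only, since the reads carry no molecular identifiers.

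The most abundant transcripts were higher in D. trinitytrinLocGG_75266c0g1t1 stood at 14715, 18565 and 12563 CPM in section B of eggs 10, 18 and 20, and at 34787, 50006 and 31316 CPM in section D. The sections did not overlap, and the log2 difference was 1.33 ± 0.14 (SE, adjusted p = 1.5e-06 in edgeR). trinitytrinLocGG_45939c0g1t1 stood at 12291, 8650 and 6991 CPM in B and at 27157, 30169 and 17683 CPM in D. Again no D library was as low as a B library, and the log2 difference was 1.44 ± 0.14 (SE, adjusted p = 6.34e-07 in edgeR). With the spike-in as scaling these differences were 0.36 and 0.46, and the call of the former ended (adjusted p = 0.109 in edgeR). Together they made up 2.60 ± 0.434% of the counts in B and 6.09 ± 1.25% in D (SD, n = 3).

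The difference between the inner sections was set against that between the pole sections. The comparison of E with A uses other libraries of the same 3 eggs. The transcripts it picks out are thus read in B and D from libraries that did not choose them. The filter, scaling, egg terms and pooled spread are shared. Between E and A 35.1% of the 29102 transcripts were called, 17.5% higher in E and 17.6% higher in A. Of these 10222 calls, 5654 (55.3%) were also called between D and B in the same direction, and they made up 88.5% of the D and B calls. Opposite calls numbered 5. Without the egg as a block 2614 were called in both, without egg 18 3442 and without egg 20 3149. The share of pole calls also called inside was 55.3% with TMM and 60.5% with library totals. It was 83.7% with the deposited factor and 88.4% with the spike-in, which shift all transcripts of a library together.

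When each pair of sections was fitted on its own libraries, chosen after seeing the data, the inner pair came closer to the poles. B and D alone gave 6594 calls and A and E alone 7684, so that the inner number was 85.8% of the pole number, against 62.5% in the fit of all libraries. In these separate fits 5212 transcripts were called in both with the same direction, 79% of the inner and 67.8% of the pole calls.

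Transcripts set apart by the poles were read in the inner sections with TMM, and the shares of the vegetal and animal transcripts were not tested against each other. Of the 2396 transcripts (8.23% of those tested) called at least 2-fold higher in E than in A, 1879 (78.4%) were also called higher in D than in B and 3 higher in B. Of the 2095 (7.2%) called at least 2-fold higher in A, 1213 (57.9%) were also called higher in B and 0 higher in D. Over all transcripts tested, 12.3% were called higher in D and 9.62% higher in B. Without regard to a call, 98.1% of the vegetal transcripts lay higher in D and 96.8% of the animal transcripts higher in B. Among all transcripts tested, 49.6% lay higher in D and 50.4% higher in B. In the separate fits the shares called were 86.3% of 2048 and 69.1% of 1770.

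The larger the pole difference, the larger was the share called in the inner sections. Among transcripts higher in E it was 49.1% at under 2-fold, 69.2% at 2 to 4-fold, 85.6% at 4 to 16-fold and 95.1% at 16-fold or more. Among those higher in A it was 40.8%, 54.9%, 65.9% and 72.2%. Of the 18880 transcripts not called between the poles, 2.05% were called higher in D and 1.83% higher in B.

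**Figure D3:**
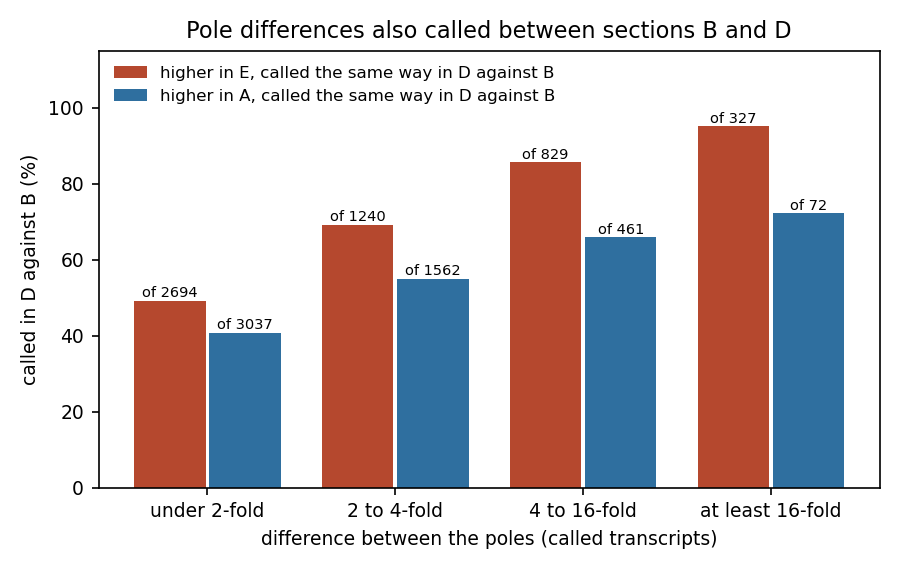
Share of the transcripts called between sections E and A that were also called, in the same direction, between D and B, by the size of the pole difference; the number of transcripts in each class stands over its bar. The share rises from 49.1% to 95.1% for transcripts higher in E and from 40.8% to 72.2% for those higher in A.

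The size of the inner difference was a large part of the pole difference. For the 2396 vegetal transcripts the median log2 difference of D to B was 1.42, against 1.95 for E to A (1.41 and 1.94 with transcripts at 0 counts in a section set to their bound). For the 2095 animal transcripts it was -0.83 against -1.47, with or without the bounds. Over all transcripts the medians were 0 and -0.02. The pole values are those that chose the transcripts, which tends to raise them, while the inner values were not used for the choice.

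Read within each egg on log2 of CPM plus 0.5, the median difference of D to B of the vegetal transcripts was 1.30 in egg 10, 1.19 in egg 18 and 1.23 in egg 20. These are 73%, 72.6% and 76.2% of the median pole difference in the same egg. For the animal transcripts the medians were -0.64, -0.76 and -0.85, or 55.8%, 47.2% and 63.9% of the pole difference. The vegetal percentage was thus higher in each egg with TMM, but this order turned with the deposited factor, where the vegetal values were 58.6 to 65.1% and the animal values 63.3 to 76.2%, and with the spike-in, where they were 24.6 to 40.9% and 65.3 to 128%. Taken relative to the median of all transcripts, the difference of D to B was 1.24 to 1.28 for the vegetal transcripts. For the animal transcripts it was -0.76 to -0.74. These ranges cover TMM, DESeq2 size factors, library totals, the spike-in and the deposited factor. Scaling moves all transcripts of a library by the same amount, which this subtraction removes apart from the pseudocount. The narrow ranges are thus built in and are no test of the scaling. With 3 eggs an exact paired test cannot go below p = 0.25, and none was run.

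Chosen the other way round, transcripts set apart by the inner sections were also apart at the poles. Of the 1690 transcripts at least 2-fold higher in D, 93.6% were called higher in E than in A and 0% higher in A, with a median log2 difference of 2.32 at the poles and 1.89 inside. Of the 714 at least 2-fold higher in B, 86.3% were called higher in A and 0% higher in E, with medians of -1.86 and -1.33. Here the inner values made the choice, and the pole difference was still larger for 77.6% and 72.7% of these transcripts. Among all transcripts tested, it was larger in the same direction for 54.9%. Over the 17187 transcripts with at least 5 CPM, the log2 differences of the inner and of the pole sections correlated at r = 0.94 across transcripts (Spearman 0.88). The points share eggs and scaling but no library.

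**Figure D4:**
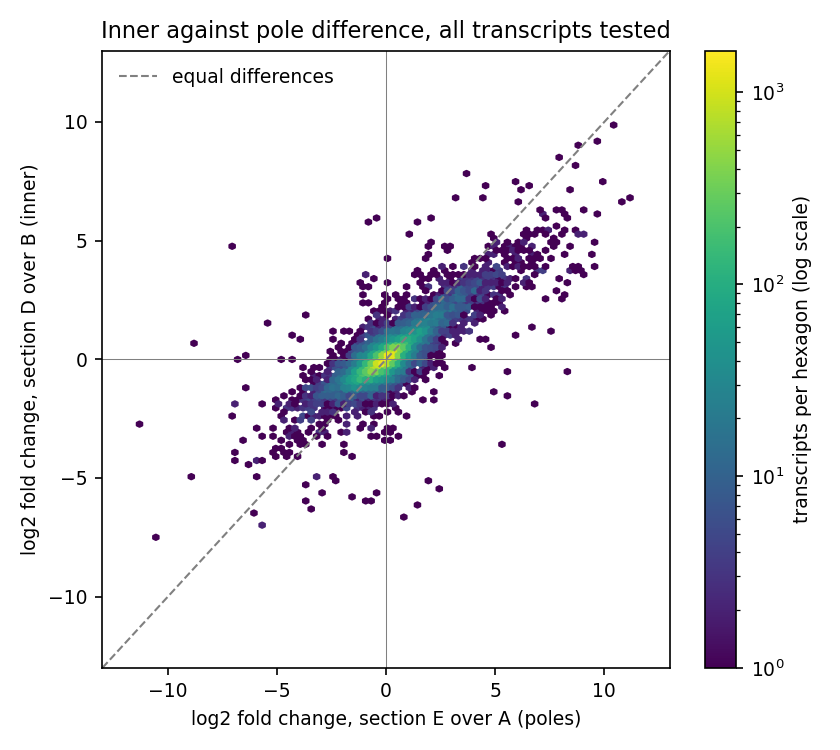
Log2 fold change of section D over B against that of section E over A for the 29102 transcripts tested, as a count per hexagon on a log colour scale; the dashed line marks equal differences. The cloud follows a line flatter than the dashed one on both sides. Among transcripts at least 16-fold higher in E the medians were 3.51 for D over B and 5.18 for E over A. Among those at least 16-fold higher in A they were -2.74 and -4.76. The pole values chose these classes.

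The share of the RNA that these transcripts make up changed as well. The 2396 vegetal transcripts held 6.42, 6.35 and 5.70% of the counts in section B of eggs 10, 18 and 20, and 16.1, 16.5 and 14.9% in section D. The share in D was 2.57 ± 0.0552 times that in B (SD, n = 3), against 3.15 ± 0.263 times for E over A. Without the 2 most abundant transcripts the values were 2.74 ± 0.114 and 4.03 ± 0.0762. The 2095 animal transcripts held 8.49, 7.11 and 8.78% in section B and 4.88, 3.41 and 4.24% in section D. Their share in D was 0.512 ± 0.0542 times that in B, against 0.312 ± 0.0581 times for E over A. Neither set had overlapping shares in B and D.

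**Figure D5:**
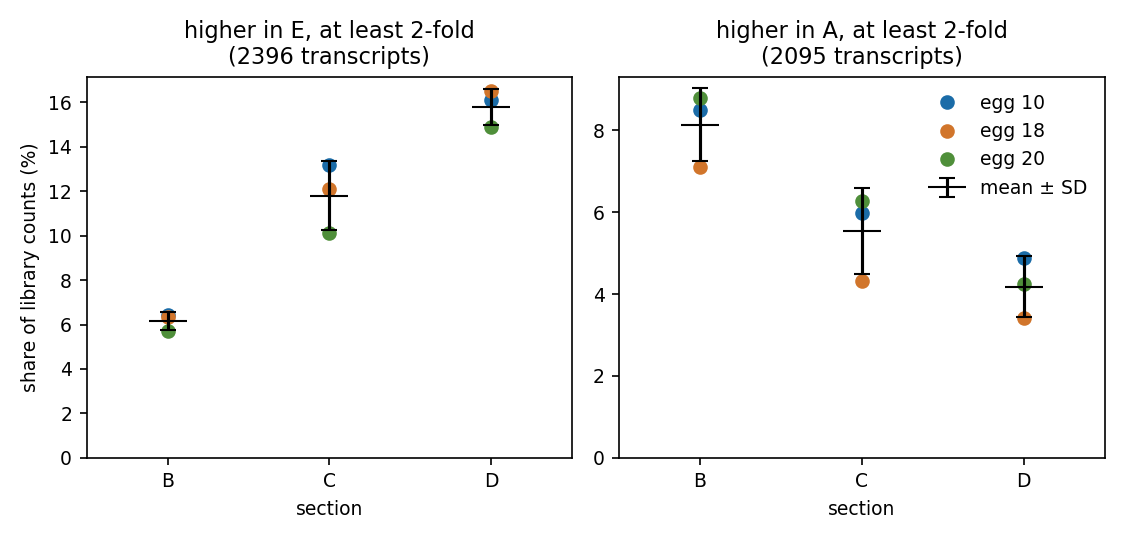
Share of library counts held by the vegetal and the animal transcripts, at least 2-fold apart between E and A, in sections B, C and D; the coloured points are single libraries and the black bars mean ± SD of 3 eggs. The vegetal share goes from 6.16% in B to 15.8% in D, and the animal share from 8.13% to 4.18%.

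Few transcripts had a pole difference that differed from the inner difference by test. The contrast of E minus A with D minus B called 653 of 29102 (2.24%), 272 above zero (0.935%) and 381 below zero (1.31%), and 3142 had an unadjusted p under 0.05. At least 2-fold calls made up 0.612% above and 0.687% below zero. For 649 of the 653 the estimate of the pole difference was the larger in size, without regard to sign. Of these, 519 were called in both comparisons in the same direction. The test asks whether both differences are equal, not which is larger. Over all transcripts tested, the pole difference was the larger in the same direction for 54.9%. Of the 732 transcripts called between D and B and not between E and A, 4 passed this test, and of the 4563 called between E and A alone, 125 passed it. A call in one comparison and not in the other is thus rarely a shown difference. Of those 732, 387 were called higher in D and 345 higher in B, and the pole difference had the same sign for 92% and 92.5% of them. The same share over all transcripts tested was not computed. Over all of these the inner and pole differences correlated at a Spearman value of 0.75.

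The number called in this contrast was unstable. It was 132 without the egg as a block, 154 without egg 18 and 143 without egg 20. On leaving out single libraries it was 1177 without section A of egg 10, 373 without D of egg 10, 430, 421 and 432 without A, B and E of egg 18, and 398 without B of egg 20.

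Among transcripts more strongly vegetal at the pole, trinitytrinLocDN43810c0g1t1 stood at 1.52, 0.413 and 0.845 CPM in B and 12.2, 9.95 and 11.4 CPM in D of eggs 10, 18 and 20, a 12.1-fold difference. In section A of these eggs it stood at 0.174, 0.139 and 0.18 CPM and in E at 34.2, 11.3 and 29.2 CPM, a 151-fold difference. Section A held 2, 1 and 2 counts, and with a floor of 3 counts per library the difference was 78.6-fold. The pole difference of this transcript thus rests on few counts, whose error the SE below may not fully cover. The pole difference exceeded the inner one by 3.46 ± 0.65 on the log2 scale (SE, adjusted p = 0.00726 in edgeR). That value was 2.72 without egg 10 and 4.12 without egg 18, and the call ended without egg 10 (adjusted p = 0.184 in edgeR), without egg 20 (0.15), without section B of egg 10 (0.0699) and when the egg was no block (0.139).

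trinitytrinLocDN54716c0g1t2 stood at 0.379, 0.661 and 1.41 CPM in B and 52.5, 40.4 and 72.4 CPM in D, and at 0.0871, 0.837 and 0.18 CPM in A and 318, 125 and 290 CPM in E. Its levels thus climbed at each step from B to E in every egg. With 1, 6 and 2 counts in section A, its pole difference also rests on few counts. Its log2 pole difference exceeded the inner one by 3.46 ± 0.80 (SE, adjusted p = 0.0274 in edgeR). The value was 2.73 without egg 20, 4.80 without egg 18, 2.86 without section A of egg 10 and 4.77 without section A of egg 18. The call ended in 5 of 18 fits without an egg or a library (egg 20, section A of egg 10, section B of egg 18, sections A and B of egg 20), with an adjusted p of up to 0.492 in edgeR, and also with the robust variance estimate (0.0849) and without the egg as a block (0.259).

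On the animal side, trinitytrinLocDN43336c0g1t1 stood at 33.2, 72.4 and 80.4 CPM in section A but only at 5.02, 6.61 and 7.74 CPM in B, so that most of its difference lay outside the inner sections. In D it stood at 3.09, 1.58 and 1.38 CPM and in E at 2.60, 1.17 and 1.84 CPM. It was 3.2-fold higher in B than in D and 33.1-fold higher in A than in E. The log2 difference between both was -3.28 ± 0.57 (SE, adjusted p = 0.00392 in edgeR), and the call ended without egg 18 (0.101) and without egg 20 (0.0739). trinitytrinLocGG_64418c4g1t10 stood at 4.93, 6.53 and 5.21 CPM in B and 2.02, 1.58 and 0.88 CPM in D, against 13.8, 28.6 and 25.7 CPM in A and 0, 0.439 and 1.44 CPM in E (21 counts in all in E). Its log2 value of -3.01 ± 0.68 (SE, adjusted p = 0.0254 in edgeR) was -4.84 without egg 20 and -4.75 without section E of egg 20. The call ended in 9 of 18 such fits (without eggs 10 and 18, section D of egg 10, sections A, B, D and E of egg 18 and sections A and B of egg 20), with an adjusted p of up to 0.347 in edgeR, with the robust variance estimate (0.0573) and when the egg was no block (0.196).

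The 5 transcripts called in opposite directions inside and at the poles had small differences inside, with log2 values of 0.67 and 0.98 for those higher in D and -0.57 to -0.89 for those higher in B. trinitytrinLocDN49973c3g1t3 stood at 70.7, 57.2 and 56.9 CPM in B and 30.1, 40.2 and 37.3 CPM in D, while A held 17.5, 19.4 and 30.1 CPM and E 58.6, 40.3 and 42.5 CPM. It was highest in C in each egg, at 84.5, 83.4 and 85.4 CPM. The log2 difference was -0.77 ± 0.18 (SE) for D to B and 1.07 ± 0.19 for E to A (adjusted p = 0.00448 and 0.000207 in edgeR). trinitytrinLocDN44493c0g1t1 went the other way, at 2.18, 3.97 and 6.19 CPM in B and 3.36, 6.79 and 9.31 CPM in D. Each egg had more in D, though the sections overlapped between eggs. Its log2 difference of 0.67 ± 0.18 (SE, adjusted p = 0.0123 in edgeR) turned to -0.31 with the spike-in, was 0.06 with the deposited factor, and lost its call with DESeq2 (adjusted p = 0.0584), without egg 18 (0.151), without egg 20 (0.123), without section B of egg 18 (0.0897), without section D of egg 20 (0.0683) and without the egg as a block (0.488).

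Section C was set against the midpoint of B and D. Against the mean of B and D on the log scale, 261 of 29102 transcripts (0.897%) were called, 235 with C above (0.808%) and 26 with C below (0.0893%), and at an unadjusted p under 0.05 there were 2119. At least 2-fold calls made up 0.289% above and 0.0103% below. The mean on the log scale lies below the mean of the CPM values wherever B and D differ. A level that changes in even CPM steps from B to D thus puts C above it. The excess of calls with C above is therefore partly built in. Dropping the block left 40 calls, and the deposited factor gave 407. The number was 98, 124 and 126 without eggs 10, 18 and 20, 74 without section C of egg 10, 153 without B of egg 10, 162 without D of egg 10 and 404 without A of egg 10. trinitytrinLocDN50594c0g2t1 was nearer to D than to B in section C of each egg, with 9, 11.2 and 10.7 CPM in B, 117, 131 and 102 CPM in C and 117, 155 and 152 CPM in D. C stood 1.62 ± 0.09 above the midpoint on the log2 scale (SE, adjusted p = 1.36e-07 in edgeR). trinitytrinLocDN46092c0g1t2 was lower in C than in B and D of each egg, at 1.93, 3.13 and 3.33 CPM, against 5.78, 7.85 and 6.19 CPM in B and 4.43, 5.88 and 8.17 CPM in D. Its log2 value was -1.21 ± 0.21 (SE, adjusted p = 0.00826 in edgeR), and the call ended without egg 10 (0.108), egg 18 (0.142), egg 20 (0.0564) or section C of egg 10 (0.114) and when the egg was no block (0.333).

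For the transcripts set apart by the poles, the step from B to C was larger than that from C to D with TMM. The vegetal median rose by 0.93, 0.68 and 0.64 on the log2 scale from B to C in eggs 10, 18 and 20, and by 0.37, 0.52 and 0.59 from C to D. The animal medians were -0.41, -0.60 and -0.43 for the first step and -0.22, -0.17 and -0.42 for the second, so in egg 20 both steps were nearly alike. With the spike-in the animal steps were -0.79 ± 0.12 and -0.82 ± 0.16 (SD, n = 3), so that the order did not hold there. The steps of all transcripts tested were then -0.29 ± 0.22 and -0.58 ± 0.26. With the deposited factor the animal steps were -0.69 ± 0.11 and -0.61 ± 0.13, against -0.19 ± 0.01 and -0.35 ± 0.02 over all transcripts. In egg 20 the second animal step was the larger, at -0.76 against -0.63. With that factor the vegetal steps from C to D were 0, 0.18 and 0.24 in eggs 10, 18 and 20. Scaled by the spike-in they were -0.08, -0.33 and 0.18, so the scaled level fell in eggs 10 and 18. Over all transcripts that step was -0.46, -0.87 and -0.39, so the vegetal median still rose relative to all transcripts. Scaling shifts all transcripts of a library together, so steps relative to all transcripts stay near those with TMM by construction.

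Transcripts of one Trinity gene, the assembler's unit of transcripts that share sequence, mostly agreed in direction. Of 601 such units with several transcripts tested, 64 had at least 2 called between D and B, and 7 of these had calls in both directions. The 7 became 4 without egg 18, 2 without egg 20 and 2 when the egg was no block. Reads of near-identical transcripts can be split between them by the counting, so these counts are uncertain. The pair with the largest opposite differences at 5 CPM or more was trinitytrinLocDN54448c0g3t1 and trinitytrinLocDN54448c0g3t6. The former stood at 22.7, 31.9 and 26.0 CPM in B and 43.7, 51.1 and 44.1 CPM in D, a log2 difference of 0.79 ± 0.12 (SE, adjusted p = 0.000113 in edgeR). The latter stood at 56.7, 33.8 and 40.4 CPM in B and 31.2, 14.9 and 26.8 CPM in D, a log2 difference of -0.88 ± 0.15 (SE, adjusted p = 0.000337 in edgeR). Neither overlapped between the sections. With the spike-in the former turned to -0.18 and with the deposited factor it was 0.18 and lost its call (adjusted p = 0.21 in edgeR), while the latter lost its call without the egg as a block (0.162).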

How the data were processed

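Per the labels' protocols, single eggs were embedded and cut on a cryostat, RNA was purified with TRIzol and lithium chloride, ribosomal RNA was depleted with Ribo-Zero, and strand-specific libraries were made with a SureSelect kit. The authors deposited whole-number counts per assembled transcript and, in a second file, a normalized signal. That signal equals the deposited counts over 1 factor per library (relative range at most 9.8e-10 above 50 counts) and was used only to obtain this factor. Of tools, Trimmomatic, kallisto, DESeq2 and STAR 2.5.2b are listed, with no role, per the submitters' processing notes. The assembly is not described in those sources, and 0 of 42878 IDs matched the sterlet gene table. The gene lists and follicle cell markers drawn up by gene name were therefore not applied.

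The spike-in line, 0.0115 to 0.0235% of the counts, was left out of library sizes and tests. The counts were filtered with filterByExpr, scaled with TMM and fitted in edgeR 4.0.16 (R 4.3.3) with section and egg as terms over all 15 libraries, which gives 8 residual degrees of freedom. The contrast of D with B gives the pole sections no weight. The filter, scaling, egg terms and spread are taken over all 15 libraries, so pole libraries can shift its values and change its calls. Without section A of egg 10 the number called rose from 6391 to 7413. SE values are the log2 fold change over the root of the test's F value. Where a section holds few counts, they can be smaller than the counting error. Fold changes are ratios of mean CPM, and per-egg values use a pseudocount of 0.5 CPM. Members, lists and tests were chosen with earlier results of these data known. Named transcripts are those past the threshold with one direction in 3 of 3 eggs, a mean of at least 5 CPM and the largest log2 difference, at most 2 per direction, and the 2 most abundant. Transcripts with opposite calls and Trinity pairs were ranked by the smaller of both differences, with the same minimum of 5 CPM.

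The egg is a block because both sections come from the same egg. Deviations from the section means correlated at 0.451 to 0.791 between B and D of one egg and at -0.724 to 0.342 between different eggs. Such deviations cancel over the eggs of a section, so positive values within eggs pull those between eggs down. The gap between both ranges is thus partly built in. Between libraries of the same section the chi-square over its degrees of freedom was 8.19 to 27.2, above sampling noise. The test was also run on simulated counts with known changes in few transcripts, in balanced directions. That run cannot decide which scaling is right for these data, where many transcripts were called. Alternatives covered the samples fitted, the block, DESeq2 1.42.0, scaling, low-count filters, the robust variance, Trinity gene sums and leaving out each egg and each library.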

Additional observations from a re-analysis of the deposited data

Results flagged for a closer look

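The spike-in, a line outside the tests, had a level of 232 ± 23.3 CPM (TMM) in section D against 119 ± 10.5 in section B (SD, n = 3), 1.95 times as high, with 758 to 3407 counts in the 6 libraries where a count of 0 would allow 3. By egg the values were 229, 257 and 211 in D and 125, 125 and 107 in B, so the sections did not overlap. The factor behind the deposited normalized values, relative to the TMM size, was 1.53 times as high in D as in B, at 1.16 in each D library and 0.753, 0.757 and 0.761 in the B libraries. The part of either in the section differences was not tested beyond their use as scalings. A test of the difference itself set 653 transcripts apart as differing between the poles otherwise than between the inner sections.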

How the results depend on the processing

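DESeq2 as the test, DESeq2 size factors, every transcript with a count, the robust variance, Trinity gene sums and fits of B and D or of B, C and D alone kept each number of calls within 1.5 times. Without the egg as a block the numbers were 2777 for D versus B (1924 and 853, with 366 at least 2-fold higher in B), 5925 for E versus A (3171 and 2754), 2614 in both, 132 for the pole against the inner difference, 40 for section C and 2 Trinity genes. With library totals, 4781 were higher in B, 1130 of them at least 2-fold. With the deposited factor, D versus B gave 17940 calls (1454 and 16486, at least 2-fold 1010 and 5219), E versus A 18145 (2164 and 15981), both 15184 and section C 407. With the spike-in, D versus B gave 21318 (979 and 20339, at least 2-fold 760 and 12869), E versus A 1955 and 10381, both 10899 and Trinity genes 14. Over all transcripts the median log2 difference of D to B was -0.61 with the deposited factor and -0.97 with the spike-in. A mean of at least 5 CPM left 970 and 391 at least 2-fold calls among fewer transcripts tested. Trinity components with opposite calls numbered 43 of the 229 with at least 2 transcripts called (18.8%).

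For vegetal and animal transcripts the medians of D to B were 1.12 and -0.88 by library totals, 0.72 and -1.31 by the deposited factor, 0.41 and -1.61 by the spike-in. They were 1.40 for vegetal transcripts at a pseudocount of 0.1, 0.92 and -0.57 at 2, and 1.89 and -1.15 for transcripts at least 4-fold apart at the poles. The shares in D over B were then 4.66 and 0.357, and 2.74 for vegetal transcripts without the 2 most abundant.

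Leaving out an egg or a library gave 3456 to 7413 calls for D versus B (2007 to 4047 and 1449 to 3366, at least 2-fold 1417 to 1751 and 543 to 845), 6913 to 10534 for E versus A (3592 to 5231 and 3305 to 5335), 3149 to 6098 in both, 143 to 1177 for the pole against the inner difference, 74 to 404 for section C and 2 to 5 Trinity genes. Fewer libraries leave fewer degrees of freedom, yet the calls for D versus B rose to 7413 without section A of egg 10. The Trinity gene count, the medians and the shares were read on leaving out whole eggs only, not single libraries. The medians were 1.21 to 1.27 and -0.81 to -0.70, and the shares 2.55 to 2.60 and 0.481 to 0.529. Named transcripts gave 413 values that kept direction and call, 39 that lost the call and 2 that reversed with the spike-in, trinitytrinLocDN44493c0g1t1 to -0.31 and trinitytrinLocDN54448c0g3t1 to -0.18; the cause was not tested.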

Other observations

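In 4 of the transcripts called by the test of the difference, the estimate of the inner difference was the larger in size. All 4 were higher in D than in B. The test asks whether both differences are equal, not which is larger in size. These 4 transcripts were singled out after their values were seen. trinitytrinLocDN49660c0g1t1 stood at mean levels of 3.67 CPM in B and 9.28 CPM in D against 5.79 CPM in A and 6.10 CPM in E, with log2 differences of 1.33 inside and 0.06 at the poles (adjusted p of the difference 0.0222 in edgeR). trinitytrinLocDN50151c1g1t3 stood at 47.4 CPM in B, 66.4 in D, 93.1 in A and 72.9 in E, with log2 differences of 0.50 and -0.38 (0.0349 in edgeR). These differences have opposite signs, and no test compared their sizes. The other 2 had means under 3 CPM over all libraries.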
